A study of Mus musculus with 18 samples.

Results

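Skeletal muscle genes were followed through 18 mouse tumours. The set held 37 genes of the contractile apparatus, the calcium store and the energy supply of skeletal muscle fibres, taken by symbol from a read count table of 54532 genes, and all 37 were found and tested. The tumours came from PB2 cells, which the labels describe as mouse breast cancer cells, and RNA was taken from whole tumour; tumour cells and host are both mouse, so the reads do not separate them. The 10 tumours with the genotype EV were set against 8 tumours with the genotype p95HER2, the name of a truncated form of the receptor HER2. What EV stands for, the species of the p95HER2 sequence and whether each tumour came from its own mouse are not given in the labels. Every mouse, in both groups, received the doxycycline diet DOX625. If several tumours shared a mouse, p-values measure only the spread between these samples.

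Skeletal muscle contracts when calcium, released from the sarcoplasmic reticulum, binds troponin on the thin filaments and lets myosin heads of the thick filaments pull on actin. Adult fibres are of fast and slow kinds, which carry separate genes for myosin, troponin and the calcium pump. Fast fibres work in short bursts on phosphocreatine and glycogen, and slow fibres are rich in mitochondria and made for endurance. In bulk tissue, fewer muscle fibres and less muscle RNA per fibre cannot be told apart.

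Muscle RNA was present in every tumour, in very unequal amounts. The share of counts on the 37 genes in the EV tumours 1 to 10 was 0.022%, 0.334%, 0.417%, 0.724%, 0.662%, 0.833%, 0.267%, 0.695%, 1.07% and 0.681%. In the p95HER2 tumours 1 to 8 it was 0.225%, 0.303%, 0.402%, 0.066%, 0.247%, 0.526%, 0.118% and 0.302%. EV 1 was the lowest of all 18 tumours and EV 9 the highest, 49.5-fold apart, and without EV 1 the EV tumours spanned 4.0-fold. The p95HER2 tumours spanned 7.93-fold, with p95HER2 4 lowest and p95HER2 6 highest. The EV median share was 2.45 times the p95HER2 median, 6 of the 10 EV tumours lay above every p95HER2 tumour, and the groups overlapped.

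**Figure D1:**
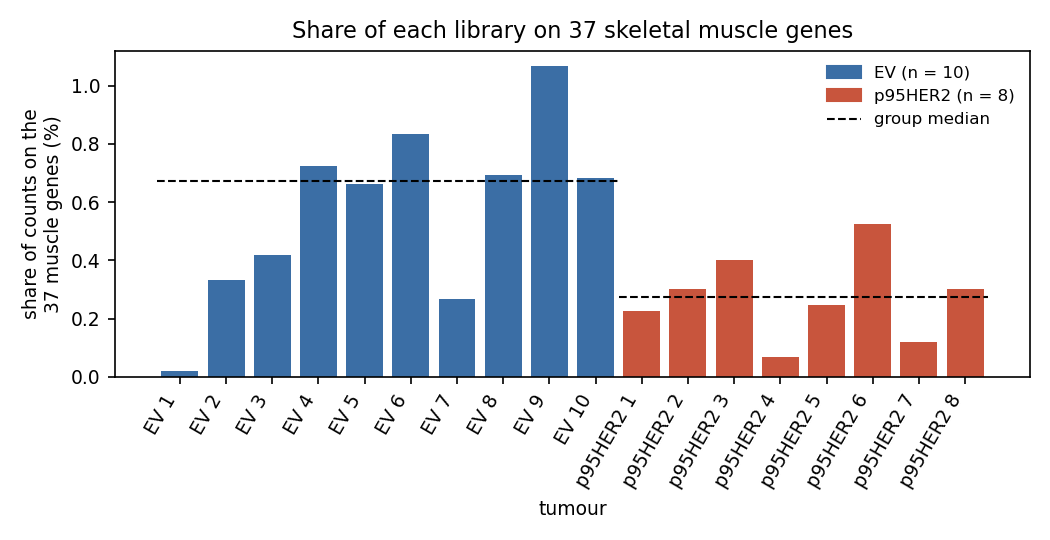
Share of each library's counts, in percent, that fell on the 37 skeletal muscle genes, 1 bar per tumour (blue, EV, n = 10; red, p95HER2, n = 8), with the group median as a dashed line. EV 1 stood at 0.022% and EV 9 at 1.07%, and 6 EV bars are taller than the tallest p95HER2 bar, at 0.526%.

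The 37 genes moved together from tumour to tumour. EV 1 was the lowest tumour for 37 of the 37 genes, while it was the lowest for 10.3% of all 17123 genes tested. EV 9 was the highest for 34 genes (6.25% of all genes tested), and the exceptions were Xirp2, highest in EV 10, Tnnc1, highest in p95HER2 6, and Tnni1, highest in p95HER2 8. Within the p95HER2 group, p95HER2 4 was lowest for 32 genes and p95HER2 7 for the other 5, and p95HER2 6 was highest for 35. On log2(CPM + 0.5), where CPM is the count relative to the library's scaled total, the standard deviation within groups had a median of 1.30 over the 37 genes and of 0.18 over all genes tested. It ran from 0.69 for Mb, at the 98.2th percentile of all genes, to 1.86 for Myh4, at the top of all genes. Without EV 1 and p95HER2 4, the tumours farthest from the median, the members' median was 0.66. Over the 666 pairs of members, Pearson's r of these levels across the 18 tumours ran from 0.75 (Tnni1 with Ldb3) to 0.999 with a median of 0.96, and over the 16 tumours without EV 1 and p95HER2 4 its median was 0.94. These values describe genes measured in the same libraries.

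**Figure D2:**
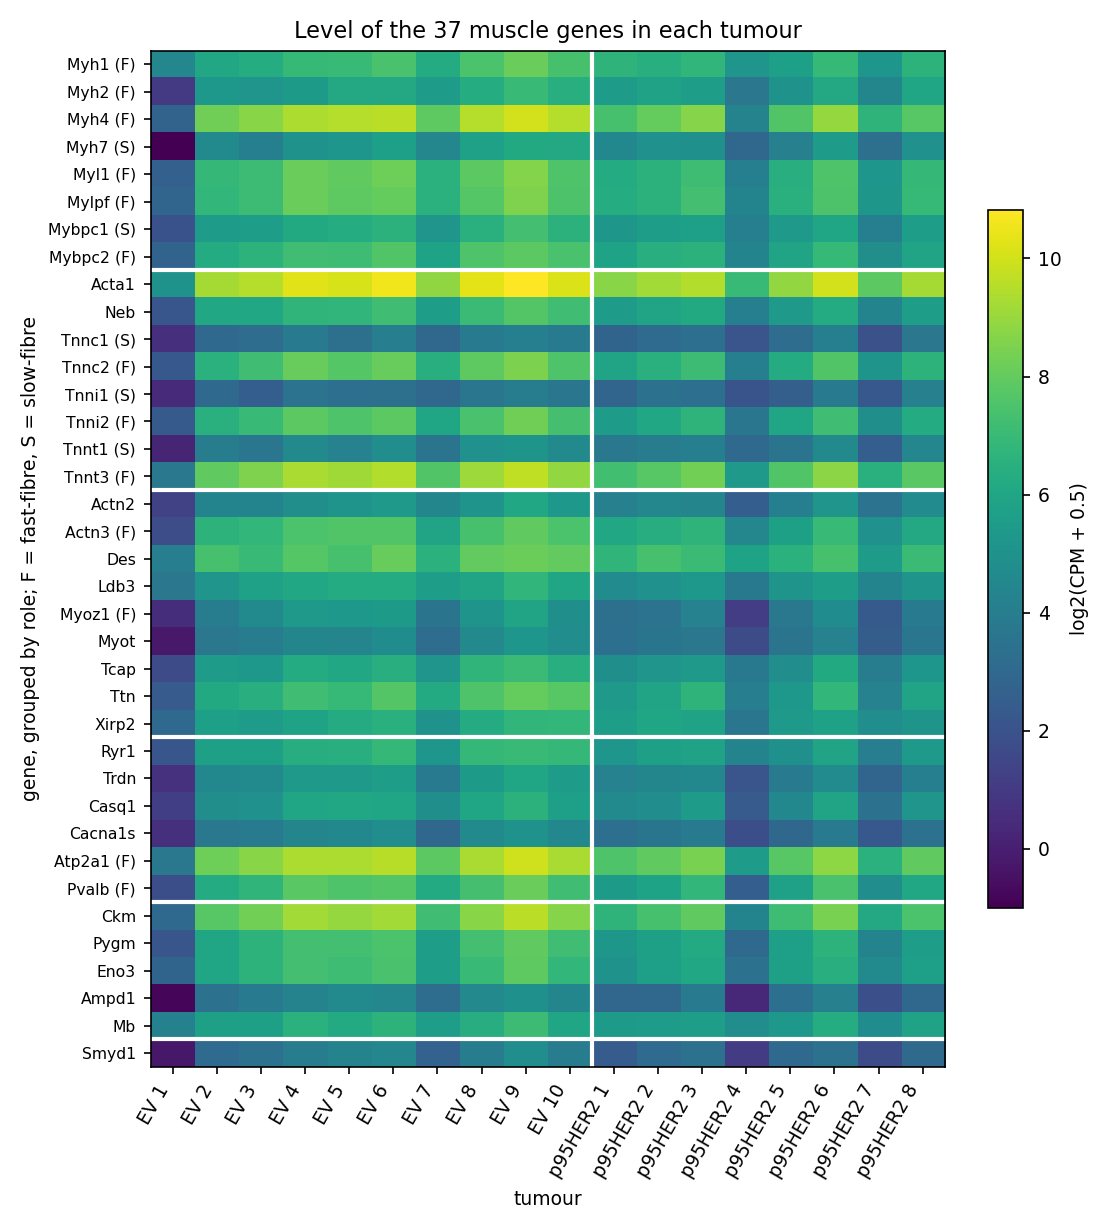
Level of each of the 37 genes (vertical axis, grouped by role with white lines between the roles; F and S mark fast-fibre and slow-fibre genes) in each of the 18 tumours (horizontal axis; EV left of the white line, p95HER2 right), as log2(CPM + 0.5) on the colour scale. The EV 1 column is the darkest for all 37 genes, and the p95HER2 4 and p95HER2 7 columns are the darkest of the right block.

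Other skeletal muscle genes followed the same order of tumours. Of 12358 genes outside the set whose log2 CPM averaged 1 or more, 131 had r of at least 0.9 with the mean level of the 37 genes over the 18 tumours, and 40 of these 131 were on lists of other muscle genes; no gene had r of -0.9 or lower. Among the most alike were Hrc, Jsrp1, Eef1a2, Myom2, Hfe2, Cox6a2, Lmod3, Art1 and Myom1, with r from 0.990 to 0.995. A list of 42 other adult skeletal muscle genes had a mean level that tracked the 37 genes with r = 0.99 over 18 tumours and r = 0.998 over the 16 without EV 1 and p95HER2 4.

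The upstream sequences of 4 members are shown, since the members moved together: 3 abundant ones and Tnni1, whose fold change was nearest to 0. They are the 250 bases before the RefSeq start on GRCm38.p6. They belong to Acta1, which encodes skeletal alpha-actin, at chr8:123894776-123895025 on the minus strand, to Myh4, the fastest myosin heavy chain, at chr11:67237562-67237811 on the plus strand, to Ckm, muscle creatine kinase, at chr7:19410844-19411093 on the plus strand, and to Tnni1, slow troponin I, at chr1:135799171-135799420 on the plus strand. Capitals mark the E-box form CAGCTG, the MCAT element CATTCC, the TATA box TATAAA and matches to the MEF2 and CArG motifs.
Acta1: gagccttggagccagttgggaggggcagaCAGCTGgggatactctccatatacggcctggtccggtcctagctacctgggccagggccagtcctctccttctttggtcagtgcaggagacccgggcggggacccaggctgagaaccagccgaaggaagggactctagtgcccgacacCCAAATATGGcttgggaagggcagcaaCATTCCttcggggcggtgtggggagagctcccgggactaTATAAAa
Myh4: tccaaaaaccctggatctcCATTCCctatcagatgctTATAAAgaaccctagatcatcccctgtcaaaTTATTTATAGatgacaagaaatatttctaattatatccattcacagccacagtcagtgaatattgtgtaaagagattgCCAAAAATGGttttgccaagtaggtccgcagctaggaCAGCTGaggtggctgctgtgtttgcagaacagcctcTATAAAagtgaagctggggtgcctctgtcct
Ckm: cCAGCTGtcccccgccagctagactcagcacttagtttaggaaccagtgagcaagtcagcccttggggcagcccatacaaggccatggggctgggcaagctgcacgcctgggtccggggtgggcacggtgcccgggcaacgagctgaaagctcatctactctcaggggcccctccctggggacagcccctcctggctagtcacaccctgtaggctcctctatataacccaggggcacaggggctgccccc
Tnni1: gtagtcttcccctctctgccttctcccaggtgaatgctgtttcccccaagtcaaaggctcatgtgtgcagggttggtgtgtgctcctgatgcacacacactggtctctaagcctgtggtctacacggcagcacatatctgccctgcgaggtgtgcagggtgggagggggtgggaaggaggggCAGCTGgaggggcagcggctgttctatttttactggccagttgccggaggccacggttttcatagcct
RefSeq gave a promoter for 28 of the 37 members, as a window from 250 bases before to 50 bases after the start. Searched on both strands, 13 of the 28 (46.4%) held CAGCTG, which 16.1% of the genes with a promoter in the same table held. The looser E-box CANNTG, which includes CAGCTG, was in 78.6% of the members and 72.1% of all genes. CATTCC was in 35.7% of the members and 14.6% of all genes, TATAAA in 25% and 14.2%, the MEF2 motif, which can overlap TATAAA, in 17.9% and 3.26%, and the CArG motif in 10.7% and 1.57%. The shown Myh4 and Acta1 sequences hold a match to CArG, and the Ckm and Tnni1 sequences hold only the CAGCTG match. A match is a run of letters and was not tested as a binding site.

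In the comparison of p95HER2 with EV, none of the 37 genes passed the test, and all their fold changes were negative. edgeR's quasi-likelihood test called 10.2% of the 17123 genes tested at a BH-adjusted p under 0.05 (5.73% higher and 4.45% lower in p95HER2) and 0 of the 37 members. At an unadjusted p under 0.05, 13 of the 37 members were lower, beside 2282 of the 17123 genes tested (13.3%). All 37 members had a negative log2 fold change, from -1.35 (Pygm) to -0.02 (Tnni1), with a median of -1.01, where the median over all genes tested was -0.01. DESeq2 called 2 members lower (6.59% of genes lower), Ldb3 (adjusted p = 0.0218) and Eno3 (adjusted p = 0.0440), and limma voom with quality weights called Ldb3 alone (adjusted p = 0.0308; 6.03% lower). The count rested on EV 1: without it, edgeR called 20 of the 37 members lower beside 6.62% of all genes, and without EV 1 and p95HER2 4 it called 21 beside 5.18%. Leaving out any other single tumour gave 0, with 3 to 23 of the 37 lower at an unadjusted p under 0.05 (8.11% to 62.2%, beside 11.7% to 13.9% of all genes). Members moved together from tumour to tumour, so such counts, here and by role below, are not counts of independent events.

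**Figure D3:**
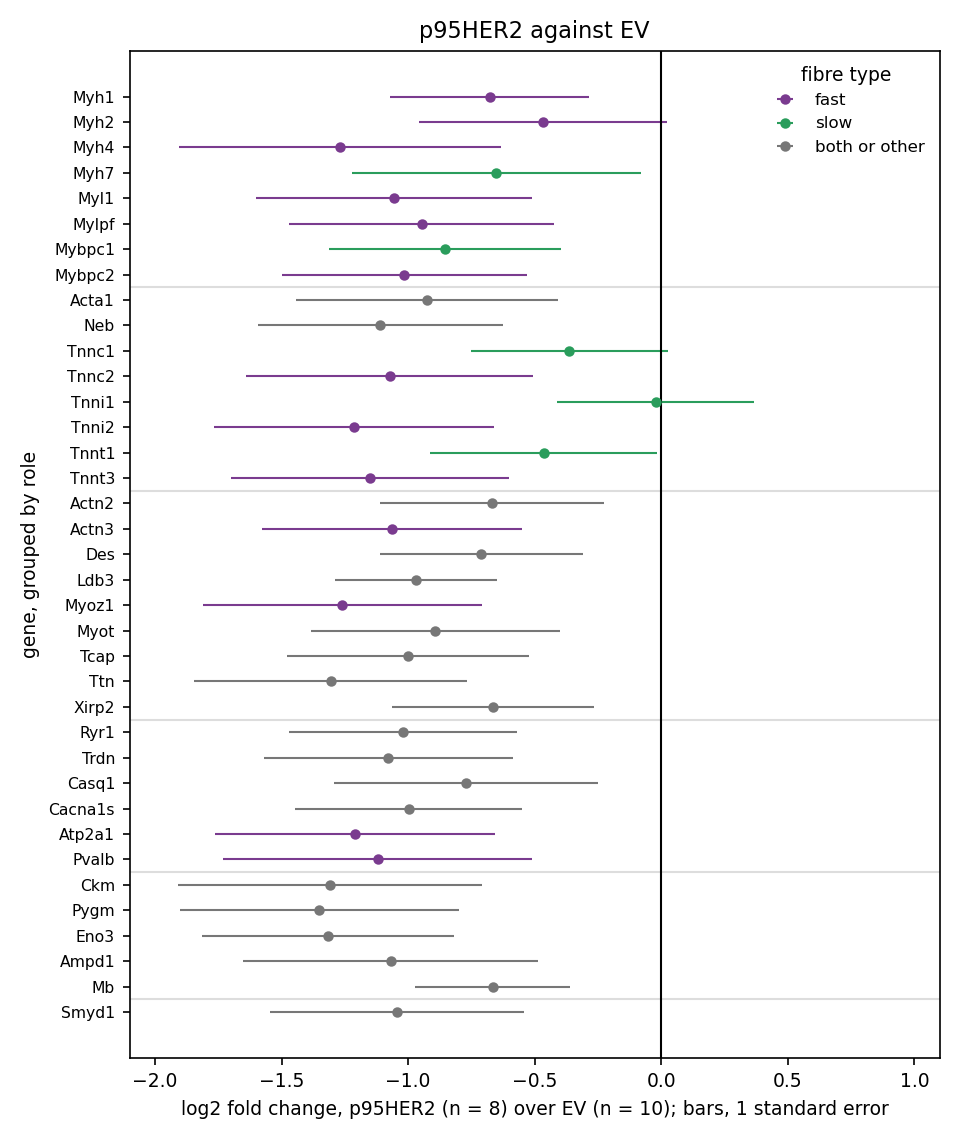
Log2 fold change of p95HER2 (n = 8) over EV (n = 10) for the 37 genes, grouped by role, with bars of 1 standard error (purple, fast-fibre; green, slow-fibre; grey, both or other). All 37 points lie left of 0, Tnni1 closest to it at -0.02 and Pygm farthest at -1.35.

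The groups also differed in other ways. Library totals were 35030920 to 38464541 counts in EV and 32686558 to 34804640 in p95HER2, without overlap. The numbers in the sample titles did not overlap between the groups either, so depth, title number and genotype cannot be told apart. Thinned to the smallest total, the members' median fold change was -1.02 with 0 called, beside 4.41% of genes lower. The summed CPM of 10 adipocyte markers was 43.8 to 148 in EV and 24.4 to 50.5 in p95HER2, and 6 of the 8 tested fell, with Adipoq at a log2 fold change of -2.44 ± 0.65 (SE; edgeR adjusted p = 0.0239). The summed CPM of 8 epithelial markers was 2062 to 3287 in EV and 2106 to 2590 in p95HER2. Without EV 1, Adipoq was at -1.88 ± 0.53 (adjusted p = 0.0258) and 5 of 8 adipocyte markers fell. Of 4 keratinocyte markers tested Krt79 and Sbsn fell, of 8 peripheral nerve markers Mbp and Pmp22 fell, and of the 8 epithelial markers Krt19 fell. The smallest edgeR adjusted p was 0.0562 among 8 endothelial markers, 0.0346 without EV 1 (Flt1, higher), and 0.0856 among 10 smooth muscle markers. The part of these cell types in the muscle values was not tested.

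The thick filament genes included the member of widest spread within groups, Myh4. Myh4, at mm10 chr11:67238029-67260446, encodes the fastest adult myosin heavy chain. It ran from 6.29 CPM (EV 1) through a median of 691 to 1043 in EV, and from 19.4 through 206 to 500.3 in p95HER2. All 8 p95HER2 tumours lay below the EV median, and EV 1 lay below every p95HER2 tumour. The log2 fold change was -1.27 ± 0.64 (SE; edgeR adjusted p = 0.217), and -1.42 ± 0.46 (adjusted p = 0.0534) without EV 1. Myh1, the next fast myosin, at chr11:67200052-67224575, had 21.6, 124 and 275 CPM as lowest, median and highest in EV and 35.1, 91.7 and 120 in p95HER2 (log2 fold change -0.68 ± 0.39, adjusted p = 0.289). Myh2, at chr11:67171027-67197517, encodes the slowest of the fast myosins and had 1.52, 56.6 and 129 CPM in EV and 12.5, 46.2 and 70.6 in p95HER2 (-0.47 ± 0.49, adjusted p = 0.590). For Myh2, 6 of 8 p95HER2 tumours lay below the EV median.

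Myh7, the slow myosin gene, at chr14:54970684-54994626, had 0 counts in EV 1 (a count of 0 allows up to 3 counts, 0.0817 CPM), a median of 35.3 and a highest value of 71.7 CPM in EV, and 7.59, 26.3 and 43.9 in p95HER2 (log2 fold change -0.65 ± 0.57, edgeR adjusted p = 0.511). Reads in these paralogs are partly ambiguous, since 25.4% of the 50-base stretches of Myh1, 22.9% of Myh2, 18.9% of Myh4 and 15.6% of Myh7 also occur in another gene. The myosin light chains Myl1 and Mylpf and the myosin-binding proteins Mybpc1, of slow fibres, and Mybpc2, of fast fibres, had log2 fold changes of -1.06, -0.95, -0.85 and -1.01, and none passed. Without EV 1, 2 of the 8 thick filament genes passed, both lower in p95HER2, beside 6.62% of all genes lower. They were Mybpc2 (edgeR adjusted p = 0.0385) and Mybpc1 (adjusted p = 0.0484).

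The make-up of the adult myosins, per exon length, differed in the tumours with least muscle RNA. In 9 EV tumours Myh4 made up 65.8% to 78.9% of the summed RPKM of the 4 adult genes Myh1, Myh2, Myh4 and Myh7, where RPKM is CPM per kilobase of exon. In EV 1 it made up 22.4% and Myh1 73.0%. Among p95HER2 tumours the Myh4 share was 28.3% in p95HER2 4, where Myh1 reached 48.6%, and 52.6% to 71.1% in the other 7. The Myh2 share had a median of 6.53% in EV and 11.2% in p95HER2, and the Myh7 share 3.45% and 4.59%. Both overlapped between the groups, and these shares were given no test.

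**Figure D4:**
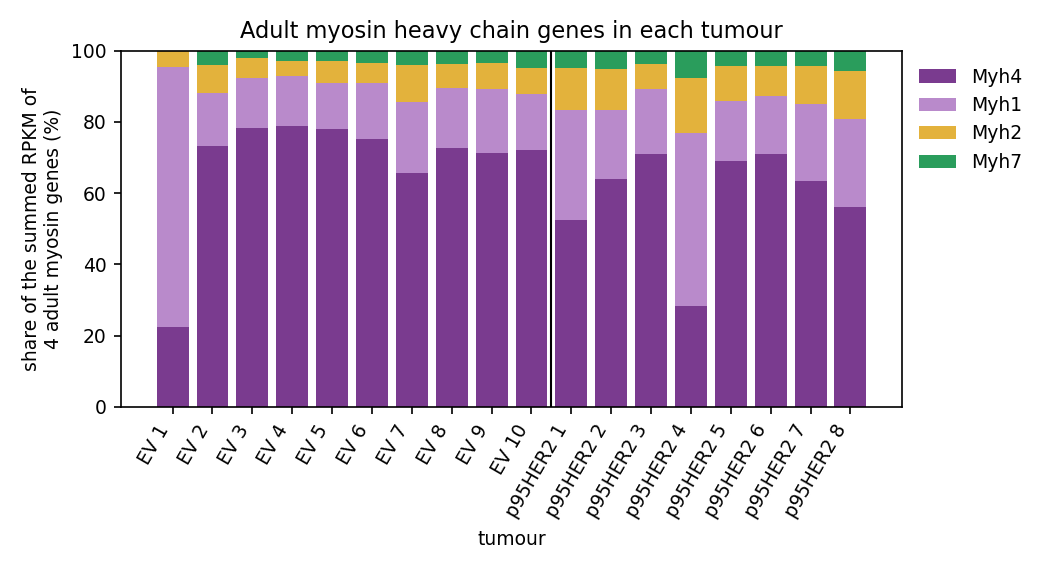
Shares, in percent of the summed RPKM, of the 4 adult myosin heavy chain genes in each tumour (EV left of the line, p95HER2 right). Myh4 takes most of each bar except in EV 1 (22.4%) and p95HER2 4 (28.3%), where Myh1 takes 73.0% and 48.6%.

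Among the thin filament genes, Acta1 was the most abundant member per exon length, with a median of 745 RPKM in EV and 351 in p95HER2. Acta1 is at chr8:123891769-123894751 and ran from 32.6 CPM (EV 1) through 1144 to 1815 in EV and from 126 through 539 to 1040.0 in p95HER2. All 8 p95HER2 tumours lay below the EV median, and the log2 fold change was -0.92 ± 0.52 (edgeR adjusted p = 0.272). Nebulin, encoded by Neb, the ruler of the thin filament, had -1.11 (adjusted p = 0.155). Without EV 1, 3 of the 8 thin filament genes passed, all lower in p95HER2, beside 6.62% of all genes lower. They were Neb (edgeR adjusted p = 0.0235), Tnni2 (0.0391) and Tnnt3 (0.0422).

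Troponin has a calcium-binding, an inhibitory and a tropomyosin-binding subunit, each with a fast and a slow gene. The inhibitory subunits differed most. Fast Tnni2, at chr7:142441808-142444410, had 4.55, 166 and 311 CPM as lowest, median and highest in EV and 11.9, 65.9 and 146 in p95HER2 (log2 fold change -1.21 ± 0.55, edgeR adjusted p = 0.172). Slow Tnni1, at chr1:135779434-135810989, had 0.844, 9.61 and 15.8 CPM in EV and 3.73, 8.23 and 17.3 in p95HER2 (-0.02 ± 0.39, adjusted p = 0.982). Only 4 of the 8 p95HER2 tumours were below the EV median of Tnni1, and p95HER2 8 was the highest of all 18. In CPM, not scaled for exon length, the ratio of Tnni2 to Tnni1 had a median of 17.0 in EV (5.39 to 24.2 over the tumours). In p95HER2 its median was 6.83 (3.20 to 11.3). Per exon length, the medians of Tnni2 and Tnni1 were 111 and 2.67 RPKM in EV and 44.0 and 2.29 in p95HER2.

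Fast Tnnt3, the tropomyosin-binding subunit, at chr7:142498836-142516009, had 12.9, 518 and 838 CPM in EV and 40.0, 205 and 435 in p95HER2 (log2 fold change -1.15 ± 0.55, edgeR adjusted p = 0.195). Its slow partner Tnnt1, at chr7:4504570-4516382, had 0.681, 21.6 and 34.3 CPM in EV and 5.27, 14.3 and 24.4 in p95HER2 (-0.46 ± 0.45, adjusted p = 0.556). For Tnnt3 all 8 p95HER2 tumours were below the EV median and for Tnnt1 6 of 8. The calcium-binding subunit of fast fibres, Tnnc2, at chr2:164777161-164779967, had 4.22, 200.5 and 364 CPM in EV and 16.4, 82.8 and 197 in p95HER2 (-1.07 ± 0.57, adjusted p = 0.242). Its slow partner Tnnc1, at chr14:31208312-31211729, had 1.03, 12.2 and 16.7 CPM in EV and 3.36, 8.62 and 16.7 in p95HER2 (-0.36 ± 0.39, adjusted p = 0.60). The Tnnc2 values are uncertain, since Ube2c on the other strand covers 74% of its exons and the sources used here do not give the strand setting of the counting. Genes on the other strand also cover 27.6% of the exons of Mb, 21.9% of Atp2a1, 20% of Cacna1s and 15.5% of Ckm.

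The Z-disc anchors the thin filaments at the ends of each sarcomere. Ttn, at chr2:76703980-76982547, encodes the giant protein that spans from Z-disc to the middle of the sarcomere, and had 4.79, 133 and 265 CPM in EV and 16.2, 49.2 and 113 in p95HER2 (log2 fold change -1.31 ± 0.54, edgeR adjusted p = 0.133). Des, the muscle intermediate filament desmin, at chr1:75360329-75368579, had 16.0, 187 and 288 CPM in EV and 46.1, 119 and 166 in p95HER2 (-0.71 ± 0.40, adjusted p = 0.278). In both genes EV 1 was far below the rest and all 8 p95HER2 tumours lay below the EV median. Xirp2, an actin-binding protein of muscle, at chr2:67446002-67526614, had 7.62, 67.4 and 114 CPM in EV and 12.1, 44.5 and 62.0 in p95HER2 (-0.66 ± 0.40, adjusted p = 0.309). Ldb3, a Z-disc scaffold, at chr14:34526603-34588682, came nearest to the threshold. It had 12.3, 60.7 and 111 CPM in EV and 13.4, 33.0 and 47.4 in p95HER2, with a log2 fold change of -0.97 ± 0.32 (adjusted p = 0.0634). Apart from EV 1, 8 of the 9 EV tumours were above every p95HER2 tumour in Ldb3. The other Z-disc genes Actn2, Actn3, Myoz1, Myot and Tcap ran from -1.26 (Myoz1) to -0.67 (Actn2). Without EV 1, 6 of the 9 genes of this role passed, all lower in p95HER2, beside 6.62% of all genes lower. They were Ldb3 (edgeR adjusted p = 0.00916), Actn3, Ttn, Tcap, Myoz1 and Myot.

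Of the genes for calcium release and uptake, Ryr1, at chr7:29003344-29125179, encodes the calcium release channel of the sarcoplasmic reticulum. It had 3.97, 84.0 and 128 CPM in EV and 16.3, 39.0 and 59.7 in p95HER2 (log2 fold change -1.02 ± 0.45, edgeR adjusted p = 0.159). Atp2a1, at chr7:126445858-126463108, encodes the calcium pump of fast fibres and had 12.7, 644 and 1004 CPM in EV and 46.3, 229.6 and 457 in p95HER2 (-1.21 ± 0.55, adjusted p = 0.173). In both, all 8 p95HER2 tumours lay below the EV median. Pvalb, at chr15:78191114-78206400, encodes parvalbumin, a calcium buffer that speeds relaxation of fast fibres, and had 3.05, 156 and 280.1 CPM in EV and 5.31, 55.6 and 169.7 in p95HER2 (-1.12 ± 0.61, adjusted p = 0.258). The voltage sensor Cacna1s, the junction protein Trdn and the calcium store protein Casq1 had -1.0, -1.08 and -0.77. Without EV 1, Ryr1, Cacna1s, Trdn and Atp2a1 passed, lower in p95HER2, which is 4 of 6 genes, beside 6.62% of all genes lower.

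The genes of energy supply had the most negative median of the roles with more than 1 gene, -1.31. Ckm, at chr7:19404776-19422841, encodes the creatine kinase that restores ATP from phosphocreatine. It had 7.79, 417 and 771 CPM in EV and 19.9, 153 and 350.2 in p95HER2 (log2 fold change -1.31 ± 0.60, edgeR adjusted p = 0.175). Pygm, which breaks down glycogen, had -1.35 (adjusted p = 0.128), the glycolytic enzyme Eno3 had -1.32 (adjusted p = 0.103) and the AMP deaminase Ampd1 had -1.07 (adjusted p = 0.258). Mb, at chr15:77015487-77050670, encodes the oxygen store myoglobin and varied least of the 37 genes, with 17.8, 68.3 and 136 CPM in EV and 26.3, 43.7 and 79.5 in p95HER2 (-0.67 ± 0.31, adjusted p = 0.178). Without EV 1, Ckm, Pygm, Eno3 and Mb passed, lower in p95HER2, 4 of 5 genes, beside 6.62% of all genes lower. Smyd1, at chr6:71213940-71322233, a muscle methyltransferase needed for myofibril assembly, had 0.354, 15.2 and 27.5 CPM in EV and 1.66, 7.81 and 10.5 in p95HER2 (-1.04 ± 0.50, adjusted p = 0.197; 0.0348 without EV 1).

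Partner genes of the members, most of them used outside muscle, varied in how they followed the members. Atp2a2, also of slow fibres, and cardiac Tnnt2 were on this list. The mean level of the 15 partner genes, among them Ckb, Eno1, Pygb, Actn4 and Actb, had r = 0.15 with the muscle level over 18 tumours. It was 0.14 within the 10 EV tumours and 0.53 within the 8 p95HER2 tumours. For single partners r over the 18 tumours ran from -0.64 (Actg1) to 0.78 (Ampd3). Of the 15, 2 rose (Tnnt2, log2 fold change 1.43 ± 0.25, edgeR adjusted p = 0.00231, and Ampd2, 0.13 ± 0.04, adjusted p = 0.0368) and 1 fell (Atp2a2, the calcium pump of slow fibres and of other cells, -0.38 ± 0.10, adjusted p = 0.0168), beside 10.2% of all genes called. Of the 42 other adult skeletal muscle genes all 42 had negative fold changes with a median of -0.90, and 1 was lower, Sgca of the sarcoglycan complex (-0.79 ± 0.24, adjusted p = 0.0396). That count was 26 without EV 1 (6.62% of all genes lower) and 21 without EV 1 and p95HER2 4 (5.18% lower).

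Slow-fibre members were nearer to 0 than fast-fibre members. The 5 slow-fibre genes had log2 fold changes from -0.85 (Mybpc1) to -0.02 (Tnni1) with a median of -0.46, and the 13 fast-fibre genes from -1.27 (Myh4) to -0.47 (Myh2) with a median of -1.07; the difference between the lists was given no test. Without EV 1 the medians were -0.61 and -1.22. The mean level of the fast genes minus that of the slow genes was 2.07, 2.56, 3.16, 3.06, 3.19, 2.98, 2.5, 2.73, 3.01 and 2.60 log2 units in EV 1 to 10, and 2.25, 2.23, 2.68, 1.18, 2.39, 2.55, 2.30 and 1.94 in p95HER2 1 to 8. The median was 2.86 in EV and 2.27 in p95HER2, with overlap between the groups. Over the 18 tumours this difference had r = 0.72 (Spearman's rho 0.79) with the muscle level, and r = 0.68 without EV 1 and p95HER2 4. The muscle level itself includes the 13 fast and 5 slow genes, so part of this r is built in. The 9 other slow-fibre genes, outside the set, ran from -0.82 (Myl3) to -0.02 (Casq2), with Myh7b at -0.71. Their median, -0.38, was the value of Atp2a2, which alone passed. Atp2a2 and Tpm3 (-0.13) did not follow the muscle level, with r of 0.006 and 0.02 over the 18 tumours.

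**Figure D5:**
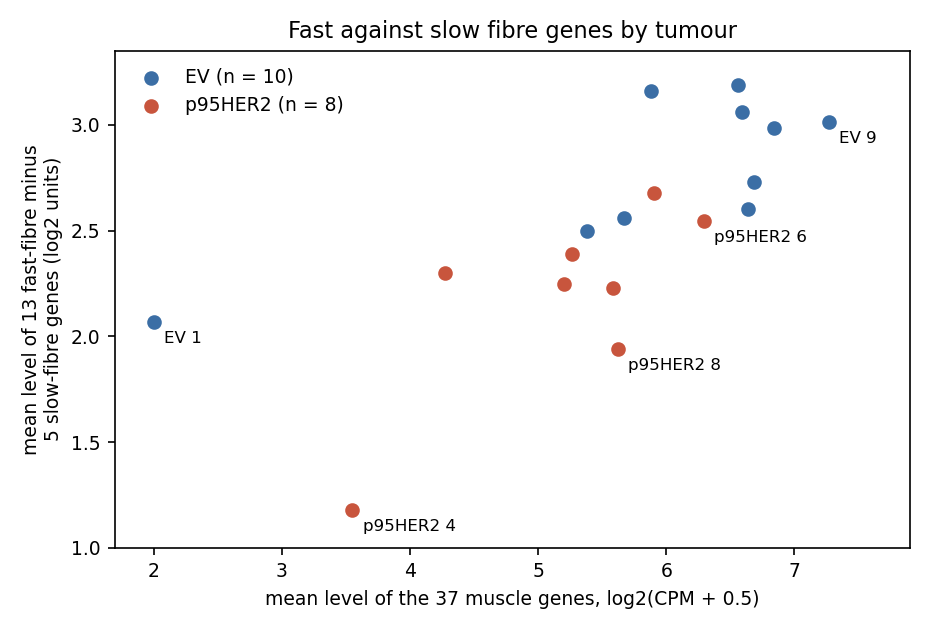
Mean level of the 13 fast-fibre genes minus that of the 5 slow-fibre genes (vertical axis, log2 units) against the mean level of all 37 muscle genes (horizontal axis, log2(CPM + 0.5)), 1 point per tumour (blue, EV, n = 10; red, p95HER2, n = 8). EV 1 (2.07) and p95HER2 4 (1.18) lie low on both axes, and the p95HER2 points lie between 1.18 and 2.68 against 2.07 to 3.19 for EV.

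The comparison was repeated at an equal muscle level, with the mean level of the 42 other adult muscle genes as a covariate, an analysis added after the data were seen. edgeR then called 10% of all genes (5.48% higher and 4.55% lower) and 7 of the 37 members. Of the slow-fibre members 4 of 5 were higher in p95HER2: Tnni1 (log2 difference 0.79 ± 0.17, adjusted p = 0.00743), Tnnt1 (0.63 ± 0.18, adjusted p = 0.0327), Tnnc1 (0.47 ± 0.13, adjusted p = 0.0247) and Mybpc1 (0.31 ± 0.09, adjusted p = 0.0348). Myh7 had 0.77 ± 0.28 (adjusted p = 0.0863). Of the 13 fast-fibre members 1 was higher, Myh2 (0.70 ± 0.20, adjusted p = 0.0366), and of the others Acta1 was higher (0.33 ± 0.09, adjusted p = 0.0225) and Ldb3 lower (-0.35 ± 0.10, adjusted p = 0.0262). Most members had a positive difference in this fit. It was positive for 5 of 5 slow-fibre members (median 0.63), 12 of 13 fast-fibre members (median 0.14) and 14 of the 19 others (median 0.15). Of the 42 covariate genes themselves, 4 were called higher. The 7 member calls rested on EV 1: without it 0 of the 37 passed edgeR's test (3.71% of all genes did). Of the 37, 6 then had an unadjusted p under 0.05, 16.2% beside 21% of all genes. Tnni1 had 0.67 (adjusted p = 0.0711) without EV 1 and p95HER2 4. All 5 slow-fibre members kept a positive difference there, with a median of 0.40, where the 13 fast-fibre members had a median of -0.04 and 6 positive values. Without p95HER2 1 the count was 4.

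EV 1 also stood apart in markers of other tissues. The EV medians of 36 members were 3.84 to 245 times their EV 1 values, with a median of 31.6, smallest for Mb and largest for Ampd1, and the remaining gene, Myh7, had 0 counts there. For p95HER2 4 the same ratio to the p95HER2 median was 1.61 to 10.6 with a median of 3.69. EV 1 had the highest summed level of 8 keratinocyte markers, 120 CPM against 17.1 to 28.1 in the other EV tumours, with Krt1 at 23.3 CPM there and at most 0.052 in the other EV tumours. Its summed level of 10 adipocyte markers was 148 CPM. EV 2, with a muscle share of 0.334%, had 107 CPM, and the remaining EV tumours had 43.8 to 76.2. The sum of 8 epithelial markers was 3287 CPM in EV 1, against 2062 to 2567 in the other EV tumours. Krt8 and Krt18 had 39261 and 19265 counts in EV 1, against at most 22561 and 12059 in the other EV tumours. Cdh1 and Cldn3 were also highest in EV 1, by less. Epcam, Krt19, Cldn7 and Esrp1 lay within the range of the other EV tumours. The part of these tissues in the low muscle level of EV 1 was not tested.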

How the data were processed

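RNA was sequenced from whole tumour with a directional mRNA library kit, per the labels' protocols. The authors deposited 1 table of whole-number read counts per gene. The submitters' processing notes name the mm10 build, STAR 2.5 and HTSeq 0.6.1. The sources used here give neither the strand setting nor the annotation release, so reads of genes that overlap on opposite strands may be mixed. Of 54532 genes, 22778 had 0 counts in every library.

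Tumours were grouped by the genotype label and numbered in accession order. Genes passing edgeR's filterByExpr (minimum count 10, minimum total 15) were fitted together with TMM scaling and the robust quasi-likelihood F-test (edgeR 4.0.16, R 4.3.3), and p-values were BH-adjusted over all genes tested, with calls under 0.05. Standard errors are the absolute log2 fold change divided by the square root of F. CPM was scaled by TMM, levels are means of log2(CPM + 0.5), and RPKM used GENCODE M21 exon lengths on mm10. Alternatives were other scalings, filters, DESeq2 1.42.0, limma voom 3.58.1, thinning to the smallest total and leaving out each tumour. The covariate fit was added after the data were seen. Leaving out the 2 tumours farthest from the median muscle level, which were EV 1 and p95HER2 4, was planned for the other lists and added for the members after the data were seen.

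The members and all gene lists were chosen with earlier results of these data known. All 37 members are reported, 20 of them in full by a fixed list together with those that came nearest to a call, and up to 4 genes of each other list, those of smallest adjusted p, together with defining markers. On simulated counts for 16983 genes, the fit found 30 of 50 genes changed 1.5-fold, 43 of 50 changed 2-fold and 46 of 50 changed 4-fold, and called 4 of 16791 unchanged genes. This is a recovery over genes at large, whose median within-group SD was 0.18, and does not carry over to the members, whose median was 1.30. Promoters are from RefSeq on GRCm38.p6. Proteins were not analysed here. Of the 10 genes outside the set most alike in pattern, 1 is not reported here.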

Additional observations from a re-analysis of the deposited data

Results flagged for a closer look

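EV 1 lay apart from the other 9 EV tumours in nearly the whole set. In 80 groups of values (37 genes, the muscle level, the share of counts and the fast-slow difference, in EV and in p95HER2), the gap between the lowest or highest tumour and its neighbour exceeded Dixon's critical value 37 times, and all 37 were EV 1 at the low end of EV; chance gives about 1 in 20. These are not 37 independent events, since the genes share the library. Myh1 was the 1 member below the limit. The muscle level was 2.0 in EV 1 and 5.38 in the next lowest EV tumour. On log2(CPM + 0.5), EV 1 was at 1.02 for Myh2, 2.76 for Myh4, -1.0 for Myh7, 2.65 for Myl1, 2.86 for Mylpf, 1.96 for Mybpc1 and 2.76 for Mybpc2 among the thick filament genes. Its values for the thin filament genes were 5.05 for Acta1, 2.17 for Neb, 0.62 for Tnnc1, 2.24 for Tnnc2, 0.43 for Tnni1, 2.34 for Tnni2, 0.24 for Tnnt1 and 3.74 for Tnnt3. For the Z-disc and cytoskeleton genes they were 1.31 for Actn2, 1.78 for Actn3, 4.04 for Des, 3.68 for Ldb3, 0.54 for Myoz1, -0.18 for Myot, 1.71 for Tcap, 2.40 for Ttn and 3.02 for Xirp2. The genes of calcium release and uptake stood at 2.16 for Ryr1, 0.69 for Trdn, 1.20 for Casq1, 0.62 for Cacna1s, 3.72 for Atp2a1 and 1.83 for Pvalb. Energy supply genes had 3.05 for Ckm, 2.15 for Pygm, 2.80 for Eno3, -0.78 for Ampd1 and 4.19 for Mb. The regulator was at -0.23 for Smyd1. The next lowest EV tumour was at 7.91 for Myh4, 8.85 for Acta1 and 7.21 for Ckm. The results without EV 1 stand beside the full ones in the text above.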

How the results depend on the processing

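The choice of tumours mattered more than the processing. RLE scaling, library totals, scaling without the members, no filter, a filter at 1 CPM and thinning each left 0 members called, with all 37 fold changes negative; the number of genes called ran from 1352 to 1751 over these. DESeq2 called 2 members and limma voom 1, of 2367 and 2277 genes; the cause was not tested. Leaving out 1 tumour at a time gave 0 to 20 members called, 20 without EV 1, and 1289 to 2331 genes called. Without EV 1 and p95HER2 4, 21 members and 21 of the 42 other adult muscle genes were called, against 1 of the 42 in all 18 tumours (26 without EV 1). Of all genes, 5.18% were lower without both tumours, 4.45% in all 18 and 6.62% without EV 1. Over 999 fold changes of members under alternatives, 947 kept direction and side of the threshold, 44 passed it with the same direction and 8 turned sign. The 8 were all of Tnni1 with 1 tumour left out, whose log2 fold change ran from -0.23 to 0.10. Of the differences between group means, that of the muscle level ran from -1.18 to -0.50 with 1 tumour left out (-0.74 in all), that of the fast-slow difference from -0.68 to -0.45 (-0.60) and that of the share from -0.357 to -0.241 percentage points (-0.296). The members' median within-group SD ran from 0.77 (without EV 1) to 1.34, and was 0.66 without EV 1 and p95HER2 4. At equal muscle level the 7 calls became 0 to 9 with 1 tumour left out, 4 without p95HER2 1, 0 without EV 1, and 0 without EV 1 and p95HER2 4. No paired analysis was possible because the labels give no replicate numbers shared between the groups. Depth was 32686558 to 38464541 counts per library, and the lowest members had few counts in EV 1.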

Other observations

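Genes on a list of satellite cell, myogenic and embryonic muscle genes were at most 12.2 CPM in any tumour. Of 15 such genes, 12 were tested, 6 of them with negative fold changes, and the smallest edgeR adjusted p was 0.101, for the myogenic factor gene Myf6 (log2 fold change -1.07 ± 0.41; adjusted p = 0.00496 without EV 1). The embryonic myosin gene Myh3 had its highest value in p95HER2 8, 11.0 CPM, against 0.115 to 4.87 in EV, with a log2 fold change of 0.87 ± 0.52 (edgeR adjusted p = 0.311). The perinatal myosin gene Myh8 was also highest in p95HER2 8, at 12.2 CPM. Tnni1 and the slow calcium store gene Casq2 had their highest values in the same tumour. The mean level of these 15 genes had r = 0.72 with the muscle level over 18 tumours and r = 0.54 over the 16 without EV 1 and p95HER2 4. The tested genes of the list differed in this, with r over 18 tumours from 0.14 (Chrng) to 0.92 (Myf6). Chrna1 had 0.85, Myog 0.39, Mymk 0.34 and Myh3 0.33.

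Of 9 cardiac muscle genes, 4 were tested and 2 rose in p95HER2, beside 5.73% of all genes higher, where the skeletal muscle genes had negative fold changes. The 2 were Nppb, a natriuretic peptide gene, with a log2 fold change of 3.18 ± 0.44 (edgeR adjusted p = 0.000199), and Tnnt2, cardiac troponin T, with 1.43 ± 0.25 (adjusted p = 0.00231), and both passed without EV 1. Tnni3 had -0.50 ± 0.34 (edgeR adjusted p = 0.372) and Myl4 0.24 ± 0.27 (adjusted p = 0.617). Tnnt2 ran from 5.03 to 15.7 CPM in EV and from 10.2 to 40.5 in p95HER2. Nppb was near the floor, with 0 to 14 counts per library in EV and 15 to 94 in p95HER2. The defining cardiac genes Myh6, Nppa and Myl7 were at most 0.22 CPM in every tumour. The part of any cell type in these values was not tested.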
